A study of Mus musculus with 4 samples.

Results

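Chemokines and their receptors were followed through single-cell RNA counts of the mouse mammary gland. The members were chosen by symbol: every numbered *Ccl*, *Cxcl*, *Ccr* and *Cxcr* gene, with *Xcl1*, *Xcr1*, *Cx3cl1*, *Cx3cr1*, *Ackr1* and *Ackr3*. They came to 57 symbols, 37 ligands and 20 receptors, among 28693 genes. Of these, 54 had at least 1 UMI (unique molecular identifier, the count of 1 captured RNA molecule) and *Ccl21b*, *Ccl26* and *Ccl27b* had none. The symbols *Ccl19*, *Ccl21a*, *Ccl21b* and *Ccl27a* are listed more than once, with all further copies at 0 UMIs, so that the counts of these genes, which have near-identical copies, are uncertain.

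Chemokines are small secreted or membrane-held proteins that direct the movement of leukocytes by binding receptors coupled to G proteins. The CC and CXC families are named for the spacing of their cysteines, and many ligands share a receptor. Atypical receptors such as Ackr1 and Ackr3 bind chemokines without starting the usual migration signal, holding or removing them. In a mammary gland the ligands can come from luminal and basal epithelium, fibroblasts, endothelium and immune cells, while most signalling receptors sit on leukocytes.

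The study removed the Hippo pathway kinases LATS1 and LATS2 from luminal cells of the adult gland. CTL replicates 1 and 2 were nulliparous Lats1f/f;Lats2f/f mice with 1 R26-lsl-EYFP allele and no Cre. LATS1/2-KO replicates 1 and 2 carried in addition Krt8-CreERT2, which acts in Krt8-expressing luminal cells, and replicate 2 had 2 EYFP alleles where the other mice had 1. All mice received 2 mg tamoxifen on 5 days in a row and glands were taken 7 days after the last dose. Each library held the sorted live cells of 1 mouse, with n = 2 per group. As the CTL mice lacked Cre, the loss of LATS1/2 cannot be told apart from Cre activity itself.

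After filtering, 18200 of 20324 barcodes remained, 3515 to 5272 per library, with 38792520 to 46810771 UMIs per library and median depths of 5962.5 to 10141 UMIs per cell. Pairs of libraries shared 4 to 17 barcodes. The reporter followed the labels, with 14 and 18 UMIs of EYFP in CTL 1 and CTL 2 against 3048 in LATS1/2-KO 1 and 4855 in LATS1/2-KO 2. In luminal ER- cells *Lats1* was at 25.7, 25.3, 14.4 and 17.1 CPM (UMIs of a gene scaled to 1 common total) in CTL 1, CTL 2, LATS1/2-KO 1 and LATS1/2-KO 2, and *Lats2* at 15.1, 16.8, 26.9 and 27.9 CPM. These 3′ tags need not lie in the deleted part of either gene and do not check the deletion.

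Cells were clustered without the chemokine genes and named after marker genes, each name standing for cells like that type. From CTL 1 to LATS1/2-KO 2 in the same order, luminal ER- cells numbered 2999, 2158, 1845 and 1803, luminal ER+ cells 1399, 1043, 489 and 145, and basal cells 195, 158, 362 and 464. Fibroblasts numbered 61, 25, 333 and 977, endothelial cells 44, 35, 263 and 262, T/NK cells 174, 73, 29 and 120, and macrophages 4, 5, 188 and 258. A further 1754 epithelial cells, 802 and 950 of them in the LATS1/2-KO libraries, met no single name and stand apart from the lineages. CTL and LATS1/2-KO cells of 1 lineage mostly lay in different clusters: luminal ER- cells in clusters 1, 2, 5, 13 and 24 for CTL and 3, 4 and 7 for LATS1/2-KO, luminal ER+ cells mainly in 0 and 11, basal cells in 17 and 8. Values below are given in the order CTL 1, CTL 2, LATS1/2-KO 1 and LATS1/2-KO 2, as CPM of all UMIs of that lineage in that library. Log2 fold changes are LATS1/2-KO against CTL with their standard error, from edgeR's quasi-likelihood test on lineage sums with Benjamini-Hochberg adjustment over all genes tested, and a gene was called at an adjusted p under 0.05.

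**Figure D1:**
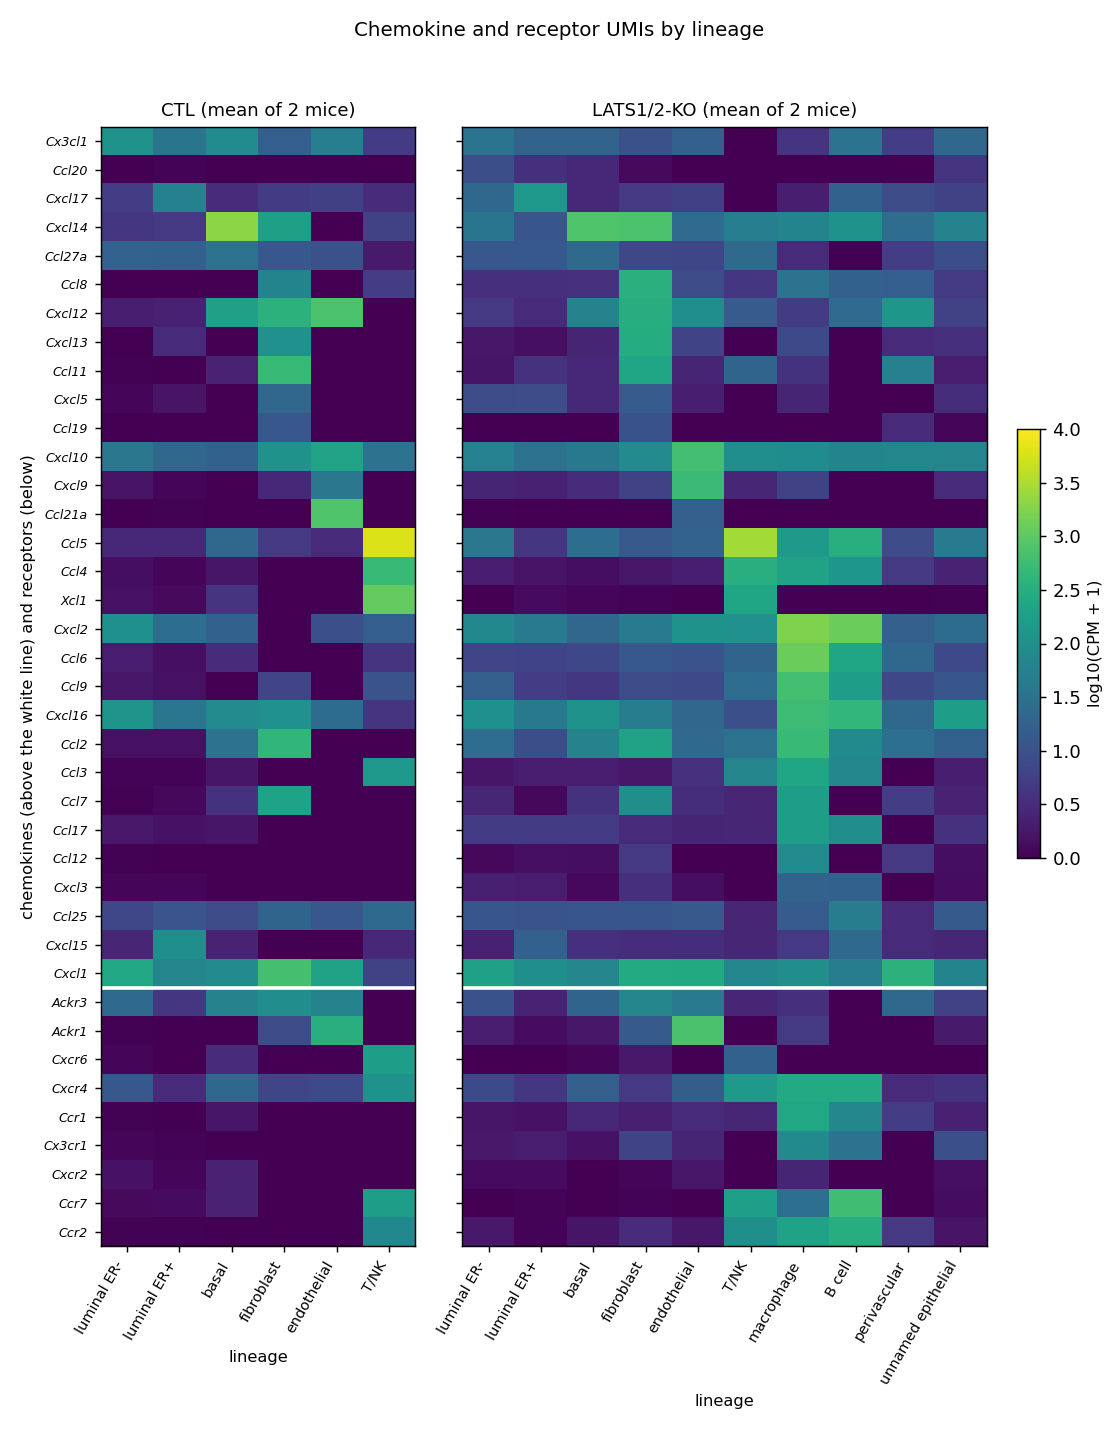
Heat map of chemokine ligands with at least 50 UMIs (above the white line) and receptors (below it) by lineage, as log10(CPM + 1), with the mean of the 2 CTL mice and of the 2 LATS1/2-KO mice side by side. *Cxcl14* was strongest in basal cells, *Ccl5* in T/NK cells, *Ccl6* and *Ccl9* in macrophages, and *Ackr1* in endothelium.

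The gland as a whole held more of most chemokines after *Lats1/2* loss. Over all cells of a library, 29 of 41 members tested were called, 23 higher (18 ligands and 5 receptors) and 6 lower (5 ligands and 1 receptor), where 53.7% of all genes were called. The median log2 fold change of the members was 1.77. In such a sum, fewer cells of a type and less RNA per cell cannot be told apart, and macrophages, fibroblasts and endothelial cells were more numerous in both LATS1/2-KO libraries.

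The monocyte attractant *Ccl2* was at 2.14, 3.17, 47.9 and 59.2 CPM over all cells, a log2 fold change of 4.09 ± 0.22 (adjusted p = 0.000387). *Ccl6*, a ligand of myeloid cells, was at 1.30, 1.62, 40.6 and 36.5 CPM (4.48 ± 0.16, adjusted p = 0.000204), and *Ccl9*, a like ligand, at 1.13, 1.29, 30.7 and 26.7 CPM (4.32 ± 0.16, adjusted p = 0.00021). Groups did not overlap for these 3 genes. *Ccl20*, the ligand of Ccr6, had 4 UMIs in the CTL libraries together and 406 in the LATS1/2-KO libraries (6.47 ± 0.66, adjusted p = 0.00158). *Ccl8*, another ligand for monocytes, went from 35 to 2845 UMIs (6.16 ± 0.67, adjusted p = 0.00182), and *Ccl12* from 3 to 227, a ratio of 81.0 with a counting interval of 27.4 to 396. The remaining higher ligands had log2 fold changes from 1.06 for *Cxcl10* to 4.71 for *Cxcl9*: *Cxcl14* 1.72, *Cxcl12* 1.77, *Ccl3* 2.44, *Ccl11* 3.03, *Ccl17* 3.15, *Cxcl3* 3.28, *Ccl19* 3.35, *Cxcl5* 3.56 and *Ccl7* 3.58 lay between. *Ccl22* went from 1 UMI to 31, a ratio of 33.2 (5.53 to 1350).

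The higher receptors included those of monocytes and macrophages and the endothelial Ackr1. *Ccr1* was at 0.192, 0.0938, 7.68 and 9.81 CPM (log2 fold change 5.64 ± 0.35, adjusted p = 0.000504), *Cx3cr1* rose by 4.78 ± 0.50, *Ccr2* by 2.73 ± 0.21 and *Ackr1* by 3.52 ± 0.36. Lower members were mainly ligands of luminal cells and genes of lymphocytes. *Cxcl15*, a neutrophil attractant, fell from 28.9 and 56.2 to 2.94 and 2.86 CPM (-4.12 ± 0.35, adjusted p = 0.00105). *Cx3cl1*, a membrane-held ligand, fell from 92.2 and 64.4 to 22.8 and 25.4 CPM (-1.95 ± 0.20, adjusted p = 0.00154). *Cxcr6* (-3.47 ± 0.51), *Xcl1* (-3.25 ± 0.65), *Ccl21a* (-3.34 ± 0.93) and *Ccl27a* (-0.94 ± 0.18) were the others, all without overlap between groups. The call on *Ccl21a* was lost without CTL 1 (adjusted p = 0.0730) and without CTL 2 (0.0719), those on *Cxcl5* (0.0805) and *Cxcl3* (0.0667) without CTL 1, and that on *Ccl22* without CTL 2 (0.0501). The call on *Cxcl12* was lost without CTL 1 (0.0546), CTL 2 (0.125) or LATS1/2-KO 2 (0.0697) and with replicate numbers as a block (0.0623). *Cxcl13*, the ligand of B cells, was at 1.58, 1.48, 1.13 and 74.2 CPM and was not called (adjusted p = 0.0812), its level standing apart in LATS1/2-KO 2 alone.

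The libraries divided these ligands among different source cells. Of *Ccl20* UMIs in the LATS1/2-KO libraries, 83.9% of 267 and 79.1% of 139 were in luminal ER- cells. *Ccl8* came mostly from fibroblasts (81.2% and 93.2%), *Ccl6* from macrophages (76.5% and 75.0%), and *Cxcl9*, an interferon-induced ligand of Cxcr3, from endothelium (90.6% and 85.4%). *Ccl2* was divided among luminal ER- cells (36.3% and 14.0%), fibroblasts (21.5% and 41.5%) and macrophages (21.1% and 25.5%). *Cxcl15* came from luminal ER+ cells in the CTL libraries (96.7% and 98.2%), and *Ackr1* from endothelium in all 4 libraries (86.6% to 96.1%).

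The share of sources moved between groups for *Ccl5* and *Cxcl14*, given here as examples and not as a full list. *Ccl5*, a ligand of T cells and monocytes, came from T/NK cells in the CTL libraries (96.3% and 89.6%), while T/NK cells held 8.06% and 38.2% of it in the LATS1/2-KO libraries, where luminal ER- cells held 44.0% and 32.3%. *Cxcl14*, a ligand of epithelium and stroma, came from basal cells in CTL 1 (81.8%) and CTL 2 (92.5%). After *Lats1/2* loss it was divided between basal cells (34.2% and 33.4%) and fibroblasts (40.7% and 39.9%). These shares follow both the number of cells captured and the level in them.

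**Figure D2:**
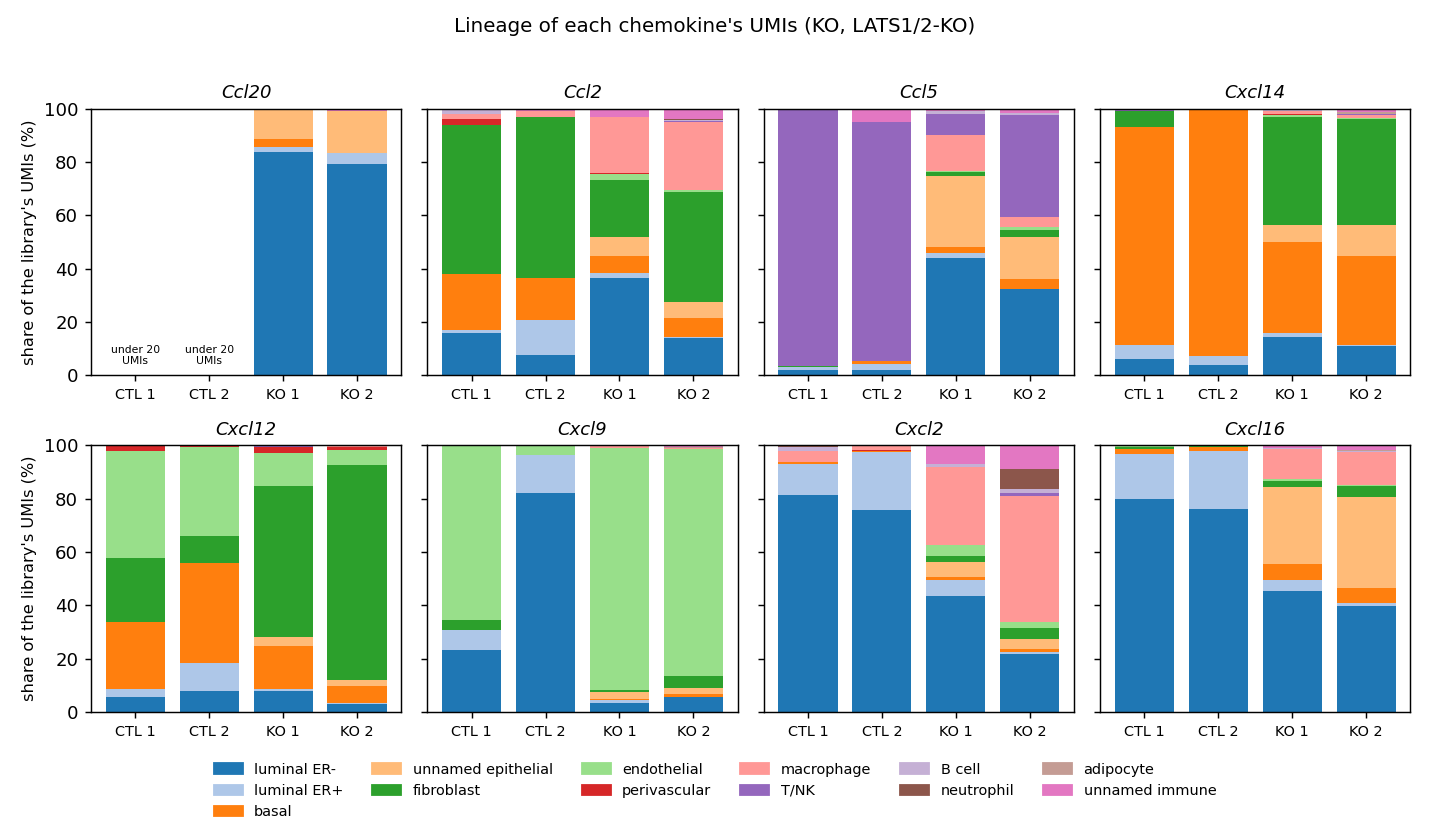
Share of each ligand's UMIs (%, stacked bars) by lineage in each of the 4 libraries for 8 ligands; libraries with under 20 UMIs of the gene are not drawn. In the LATS1/2-KO libraries luminal ER- cells held 83.9% and 79.1% of *Ccl20*, and endothelial cells 90.6% and 85.4% of *Cxcl9*.

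In LATS1/2-KO 1 and 2 the EYFP reporter was at 178.8 and 254.5 CPM in the unnamed epithelial cells. It was at 75.7 and 100.1 CPM in luminal ER- cells and at 25.5 and 63.4 CPM in luminal ER+ cells. Luminal ER- cells, the secretory lineage, gave the most called members of the lineages tested. Of 32 members tested, 26 were called, 20 higher (16 ligands and 4 receptors) and 6 lower (4 ligands and 2 receptors), where 62.7% of all 13288 genes were called, 32.6% higher and 30.1% lower. The median of the members was 2.01 on the log2 scale and that of all genes 0.01. Droplets can also hold RNA of other cells in the suspension, so each level was set beside the level of the same gene over all cells of its library. Only *Ccl20* and *Cxcl5* of the 20 higher members lay above that level in both LATS1/2-KO libraries, and the other 18 did not. The summed CPM of the 9 macrophage markers in these cells was 11.5 to 14.3 in CTL and 40.6 to 49.2 in LATS1/2-KO, that of the 7 fibroblast markers 12.5 to 15.2 and 213 to 224, and that of the 9 basal markers 27.6 to 35.1 and 846 to 1216. The part of these RNAs in the results was not tested.

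*Ccl20*, which attracts Ccr6-bearing lymphocytes and dendritic cells, had no UMI in the CTL luminal ER- cells and 334 in the LATS1/2-KO cells. It was at 0, 0, 11.3 and 5.19 CPM, at least 131-fold higher in LATS1/2-KO when the CTL group is set at a floor of 3 counts (adjusted p = 0.000286). Both LATS1/2-KO mice had it and neither CTL mouse did. The UMIs lay in 73 and 37 cells, 3.96% and 2.05% of the lineage, and the highest single cells held 34 and 30. Cluster 4 held most of it, at 18.0 and 10.0 CPM against 1.46 and 1.36 in cluster 3 and 0.829 and 0.251 in cluster 7. Its level was 1.65 and 1.67 times that over all cells of the library.

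The gene lies on the plus strand of chromosome 1 (GRCm38, chr1:83116766-83119167). Its promoter is shown with those of *Cxcl1* and *Cxcl2*, which share a motif of the NF-kB factors with it. In luminal ER- cells *Cxcl1* was lower, though not called in every setting, and *Cxcl2* was not called. LATS1 and LATS2 restrain the YAP and TAZ cofactors, which act through TEAD factors, so the TEAD core GGAATG was searched beside the NF-kB letters (GGGNN followed directly by TTTCC) on both strands of the RefSeq windows (GRCm38.p6, 250 bases before to 50 after the start). The TEAD core was in 14.7% of 32851 promoters and in 6 of 50 member promoters (12.0%: *Cxcr2*, *Ccl20*, *Cxcl3*, *Cxcl13*, *Ccl17* and *Ccr6*). The NF-kB letters were in 1.63% of all promoters and in 6 of 50 member promoters (12.0%: *Ccl20*, *Cxcl3*, *Cxcl1*, *Cxcl2*, *Ccr3* and *Ccl9*). *Ccl9*, without the TEAD core, and *Cxcl3*, with it, were also higher in luminal ER- cells, and their windows are not shown. Capitals mark the matches, which are matches of letters and not measured sites, in plus-strand sequence from before each start. The *Cxcl1* and *Cxcl2* windows stop 4 and 28 bases short of the RefSeq start, where the GENCODE gene begins.
Ccl20, chr1:83116616-83116765: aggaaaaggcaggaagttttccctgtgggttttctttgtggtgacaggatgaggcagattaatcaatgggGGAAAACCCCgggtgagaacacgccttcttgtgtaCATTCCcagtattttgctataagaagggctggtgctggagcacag
Cxcl1, chr5:90891095-90891240: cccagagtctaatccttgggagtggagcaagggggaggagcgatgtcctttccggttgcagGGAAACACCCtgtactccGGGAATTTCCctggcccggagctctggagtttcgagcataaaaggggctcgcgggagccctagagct
Cxcl2, chr5:90903749-90903870: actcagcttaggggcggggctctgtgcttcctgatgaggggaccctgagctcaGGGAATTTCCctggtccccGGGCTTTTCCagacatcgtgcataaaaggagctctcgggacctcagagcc
In the *Ccl20* window the NF-kB match lies 80 bases before the RefSeq start and the TEAD core 45 bases before it, both on the minus strand. The *Cxcl1* window has NF-kB matches at 89 bases (minus strand) and 71 bases (plus strand) before that start, and the *Cxcl2* window at 97 and 78 bases (both plus).

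*Cxcl5* is a neutrophil attractant that binds Cxcr2, like *Cxcl1*, *Cxcl2* and *Cxcl3* near it on chromosome 5. *Cxcl5* was at 0.304, 0.0459, 12.7 and 2.59 CPM in luminal ER- cells (log2 fold change 4.99 ± 0.99, adjusted p = 0.0035), in 5.64% and 1.77% of the LATS1/2-KO cells and at 1.28 and 1.20 times the library's level. *Cxcl3* was at 0.114, 0.138, 2.07 and 0.472 CPM (2.95 ± 0.86, adjusted p = 0.0191). For both genes LATS1/2-KO 1 was the higher of the LATS1/2-KO mice, and the groups did not overlap. Without LATS1/2-KO 1 the call on *Cxcl3* was lost (1.51, adjusted p = 0.114). *Cxcl1*, the most abundant member in this lineage, was at 223, 267, 217 and 170 CPM (-0.67 ± 0.15, adjusted p = 0.00525). Its CTL mice were the higher, but scaling by library totals in place of TMM, which moved the median of all genes by 0.34, gave -0.34 with an adjusted p of 0.0707. *Cxcl2* was at 77.4, 121, 97.4 and 47.7 CPM, with overlap between groups, and was not called (-0.78, adjusted p = 0.0723).

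The *Ccl2* cluster of chromosome 11 holds the monocyte attractants *Ccl2*, *Ccl7*, *Ccl12* and *Ccl8* and the eosinophil attractant *Ccl11* between positions 82035571 and 82116799 of GRCm38. *Ccl2* was at 0.608, 0.459, 34.1 and 17.5 CPM in luminal ER- cells (5.24 ± 0.43, adjusted p = 5.46e-05), with at least 1 UMI in 0.5%, 0.278%, 10.6% and 8.93% of cells. Its level was 0.712 and 0.296 times that of the whole library, and within the lineage cluster 4 was highest (50.6 and 29.5 CPM) against cluster 3 (10.2 and 7.48) and cluster 7 (7.04 and 6.53). *Ccl8* went from 1 to 104 UMIs, a ratio of 122 (21.4 to 4870; adjusted p = 0.00112). *Ccl7* went from 3 to 69, a ratio of 27.0 (8.86 to 134; adjusted p = 0.000923), and *Ccl11* from 3 to 28, a ratio of 11 (3.38 to 56.3; adjusted p = 0.0033). These 3 genes lay far below the library's level, at 0.161 and 0.0317 times it for *Ccl8*, 0.123 and 0.104 times for *Ccl7*, and 0.0543 and 0.0225 times for *Ccl11*. The call on *Ccl11* was lost without CTL 1 (adjusted p = 0.0623).

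*Ccl5* was at 1.98, 1.79, 26.2 and 49.1 CPM in luminal ER- cells (3.98 ± 0.33, adjusted p = 5.76e-05). Both LATS1/2-KO mice were above both CTL mice, but its UMIs were held by 70 and 81 cells, and the highest cells alone held 105 (20.3%) and 382 (36.7%) of them. Cluster 3 was at 39.6 and 125 CPM. *Ccl9* was at 0.608, 1.06, 16.2 and 14.8 CPM (3.91 ± 0.24, adjusted p = 1.61e-05) and in 9.97% and 9.04% of LATS1/2-KO cells, at 0.529 and 0.554 times the library's level. *Ccl6* was at 0.988, 1.19, 6.37 and 5.14 CPM (2.07 ± 0.26, adjusted p = 0.000367), at 0.157 and 0.141 times it. *Ccl3* went from 4 to 31 UMIs (2.77 ± 0.61, adjusted p = 0.00556), and its call was lost without CTL 1 (2.08, adjusted p = 0.0818).

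*Cxcl14* and *Cxcl17*, ligands of epithelial surfaces, were more widely spread over the cells. *Cxcl14* was at 4.03, 2.71, 34.0 and 36.6 CPM (3.04 ± 0.18, adjusted p = 1.21e-05), in 1.77%, 1.39%, 21.1% and 20.2% of cells and at 0.282 and 0.233 times the library's level. *Cxcl17* was at 4.56, 3.95, 22.8 and 18.8 CPM (1.95 ± 0.16, adjusted p = 6.18e-05), in 3.57%, 3.29%, 17.5% and 17.0% of cells. Neither gene's groups overlapped. Cluster 7 was highest in *Cxcl17* (62.1 and 43.9 CPM) and cluster 4 lowest (6.91 and 4.86), the opposite order to *Ccl20*. *Ccl17*, a ligand of Ccr4, was at 0.874, 0.918, 3.996 and 3.77 CPM (1.78 ± 0.26, adjusted p = 0.000812), and *Cxcl12*, the ligand of Cxcr4, at 1.22, 1.15, 3.19 and 3.91 CPM (1.25 ± 0.26, adjusted p = 0.00452). *Ccl25*, the ligand of Ccr9, was at 5.81, 6.29, 11.6 and 10.2 CPM (0.52 ± 0.15, adjusted p = 0.0196), and its call was lost without CTL 1 (0.101) or LATS1/2-KO 1 (0.0955).

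Of the membrane-held ligands *Cx3cl1* went the other way, while *Cxcl16* overlapped between groups. *Cx3cl1*, whose tethered form binds Cx3cr1-bearing leukocytes, was at 132, 96.1, 29.9 and 34.7 CPM (-2.15 ± 0.16, adjusted p = 3.95e-05). It was detected in 56.0%, 50.4%, 24.0% and 28.4% of luminal ER- cells, and after thinning each cell to 2000 UMIs in 23.3%, 16.6%, 7.0% and 5.5%. Groups did not overlap on any of these scales. *Cxcl16*, the ligand of Cxcr6, was at 131, 104, 111 and 89.8 CPM with overlap between groups (-0.56 ± 0.15, adjusted p = 0.0129). This call was lost without CTL 1 (-0.39, adjusted p = 0.0624), with library totals (-0.23, adjusted p = 0.205) and in lineages gated cell by cell (-0.23, adjusted p = 0.238). *Ccl27a*, a ligand of Ccr10, was at 16.1, 18.2, 12.5 and 10.0 CPM (-0.94 ± 0.15, adjusted p = 0.00128).

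Receptor UMIs in luminal ER- cells were few for leukocyte receptors. *Ackr3*, which removes Cxcl12, was at 18.8, 25.7, 9.26 and 8.77 CPM (-1.63 ± 0.17, adjusted p = 0.000165). *Cxcr4*, which signals on Cxcl12, was at 11.2, 11.7, 4.65 and 9.29 CPM (-1.05 ± 0.28, adjusted p = 0.0127), and library totals gave -0.71 with an adjusted p of 0.0589. *Ackr1* went from 2 to 42 UMIs, a ratio of 24.6 (6.41 to 210), *Ccr2* from 2 to 35 (20.5, 5.28 to 176), *Ccr1* from 3 to 31 (12.1, 3.78 to 62.0) and *Cx3cr1* from 6 to 35 (2.39 ± 0.64 on the log2 scale). Each of these 4 lay at or below 0.194 times the library's level in both LATS1/2-KO mice, and the calls on *Ccr1* (adjusted p = 0.0560) and *Cx3cr1* (0.131) were lost without CTL 1. Among those tested and not called were *Cxcl10* (38.5, 37.1, 47.9 and 67.2 CPM, adjusted p = 0.1498), *Cxcl2*, *Cxcl9*, *Cxcl15* and *Ccl4*.

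**Figure D3:**
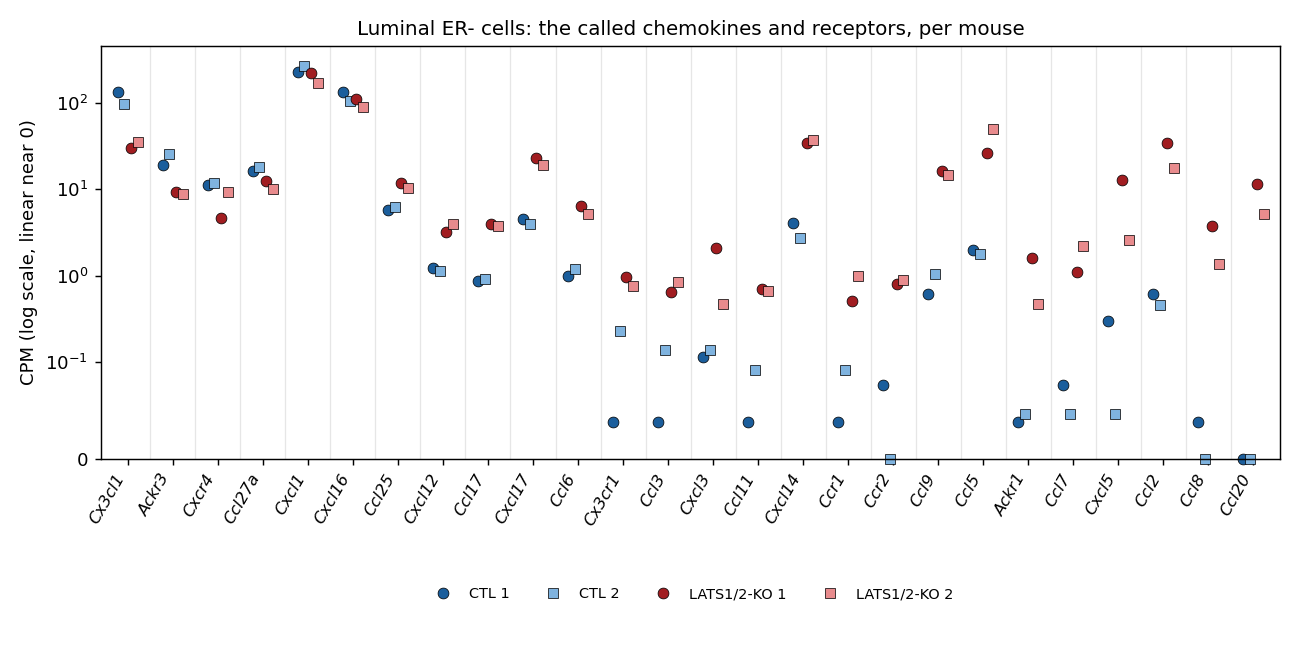
CPM in luminal ER- cells of each mouse (points, log axis that is linear near 0) for the 26 called members, ordered by log2 fold change from *Cx3cl1* to *Ccl20*. The members were drawn because they were called, so the separation of their points, for all but *Cxcl16*, adds no support.

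Within the LATS1/2-KO luminal ER- cells, those with an EYFP UMI (346 and 381) were set against those without (1499 and 1422). Depth differed between the 2 kinds of cells, with medians of 15384 against 7320 UMIs and 17061 against 7530, so a cell without an EYFP UMI may have recombined. Of 28 members tested with the mouse as a block, 15 were called, 4 higher and 11 lower in EYFP+ cells, where 42.3% of all genes were called, 20.7% higher and 21.7% lower. *Ccl20* was at 8.25 CPM in EYFP- and 18.7 in EYFP+ cells of LATS1/2-KO 1 and at 2.90 and 9.75 in LATS1/2-KO 2 (1.37 ± 0.18, adjusted p = 3.63e-07). *Ccl2* went from 23.7 to 58.9 and from 14.1 to 24.5 CPM (1.09 ± 0.12, adjusted p = 1.94e-08), *Cxcl16* from 104 to 130 and from 76.9 to 116 (0.45 ± 0.08), and *Cxcl5* from 11.1 to 16.4 and from 2.26 to 3.25 (0.55 ± 0.20, adjusted p = 0.0241). With the unnamed epithelial cells, which held 1384 and 2503 of the EYFP UMIs, *Cxcl5* was at 0.07 (adjusted p = 0.810).

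*Cxcl17* was the most strongly lowered in EYFP+ cells, from 28.7 to 8.73 and from 23.6 to 9.05 CPM (-1.56 ± 0.15, adjusted p = 4.89e-10). *Ackr3* went from 11.3 to 4.45 and from 10.6 to 5.09 CPM (-1.20 ± 0.20), and *Cxcl1* from 243 to 155 and from 184 to 144 (-0.51 ± 0.07). The other lower members were *Cxcl9* (-1.49), *Cxcr4* (-1.35), *Ccl17* (-1.11), *Cxcl12* (-0.90), *Ccl27a* (-0.53), *Cxcl2* (-0.46), *Cx3cl1* (-0.44) and *Cxcl10* (-0.34, and -0.02 with the unnamed epithelial cells, adjusted p = 0.922). With those cells *Cxcl9* was at -0.56 (adjusted p = 0.232). After each cell was thinned to 2000 UMIs 5 members were called, all among the 15: *Ccl2* and *Cxcl16* higher, *Cxcl17*, *Cxcl1* and *Cxcl2* lower. *Ccl20* then had too few UMIs to be tested, and without the mouse block 3 members were called.

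Luminal ER+ cells, the hormone-sensing lineage, shared part of this picture, with 145 cells in LATS1/2-KO 2. Of 23 members tested 13 were called, 11 ligands higher and 2 lower, where 29.1% of all genes were called. *Cxcl15* was at 70.3, 121, 19.1 and 13.4 CPM (-2.47 ± 0.32, adjusted p = 0.00323) and *Cx3cl1* at 40.5, 30.4, 18.9 and 17.3 CPM (-0.96 ± 0.20, adjusted p = 0.0160). *Cxcl17*, the leading ligand here after *Lats1/2* loss, was at 34.7, 76.5, 118 and 147 CPM (1.23 ± 0.34, adjusted p = 0.0395) and *Cxcl1* at 59.7, 69.8, 108 and 87.1 (0.61 ± 0.14, adjusted p = 0.0222). For all 4 the mice of the groups did not overlap. In cells gated one by one the calls on *Cxcl17* (0.27, adjusted p = 0.562) and *Cxcl1* (0.68, adjusted p = 0.0757) were lost.

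Most other called ligands of luminal ER+ cells rested on few UMIs. *Ccl2* was at 0.0538, 0.924, 9.10 and 7.04 CPM (4.03 ± 0.82, adjusted p = 0.0143), *Cxcl5* at 0.108, 1.13, 11.1 and 4.48 (3.75 ± 0.83, adjusted p = 0.0190) and *Cxcl14* at 4.73, 2.46, 15.5 and 6.404 (1.74 ± 0.46, adjusted p = 0.0341). *Ccl20* had 4 UMIs in CTL and 11 in LATS1/2-KO, *Ccl8* 0 and 15 (at least 31.9-fold), and *Ccl11* 1 and 17 (ratio 109, 17.0 to 4540). *Ccl6* (3.68), *Ccl9* (2.92) and *Ccl17* (2.90) rose on 17 to 38 UMIs a group. In these cells the summed macrophage markers were 9.65 to 10.8 CPM in CTL and 39.1 to 51.6 in LATS1/2-KO. The 7 fibroblast markers were at 98.6 to 574 CPM in CTL and 581 to 886 in LATS1/2-KO. Those of inflammatory fibroblasts were at 28.9 to 29.9 and 135 to 140, and those of myofibroblasts at 10.4 to 16.9 and 94.8 to 127. The part of these RNAs in the results was not tested. Of the 11, *Cxcl17* and *Cxcl5* were above the library's level in both LATS1/2-KO mice. Leaving out LATS1/2-KO 1 gave 2 called members and leaving out LATS1/2-KO 2 gave 8. *Cxcl17*, *Cx3cl1*, *Ccl2* and *Ccl9* were lost in both cases, with adjusted p from 0.0573 to 0.165.

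Basal cells, the contractile outer layer, held the highest *Cxcl14* of the lineages tested in both CTL libraries. After *Lats1/2* loss they were above fibroblasts in LATS1/2-KO 2 and below them in LATS1/2-KO 1. Of 13 members tested 5 were called, 1 higher and 4 lower, where 31.8% of all genes were called. *Cxcl14* was at 2006, 2071, 756 and 813 CPM (-1.48 ± 0.14, adjusted p = 1.33e-05). About the same share of cells had a UMI of it in both groups (92.3%, 94.9%, 89.8% and 90.5%), but at 2000 UMIs a cell the shares were 90.3%, 93.2%, 66.7% and 68.6%. *Cxcl12* was at 209, 183, 60.5 and 60.2 CPM (-1.80 ± 0.16, adjusted p = 8.45e-06) and its scavenger *Ackr3* at 57.8, 65.0, 9.45 and 27.7 (-1.75 ± 0.37, adjusted p = 0.00334). *Cx3cl1* was at 99.6, 71.0, 14.6 and 20.4 CPM (-2.36 ± 0.25, adjusted p = 3.42e-05). These 4 genes were lower in both LATS1/2-KO mice than in either CTL mouse.

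*Ccl2* was the higher member in basal cells, at 30.3, 31.7, 54.3 and 65.1 CPM (0.85 ± 0.23, adjusted p = 0.0133). Its call was lost without CTL 1 (0.0564) or CTL 2 (0.0543), with DESeq2 (0.132) and in sums thinned to the smallest library (0.51, adjusted p = 0.186). The summed level of the 7 fibroblast markers in these cells was 189 to 227 CPM in CTL and 362 to 378 in LATS1/2-KO, and its part in the result was not tested.

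Fibroblasts held most UMIs of *Ccl11* (89.9% to 97.7% in the 4 libraries) and, after *Lats1/2* loss, of *Ccl8* and *Cxcl12* (56.6% and 80.5%), but few members were called, with 61 and 25 CTL cells. Of 17 members tested 2 were called, both higher, where 5.05% of all genes were called, 2.43% higher and 2.62% lower; the median of the members was -0.41. *Ccl8* was at 108, 15.9, 364 and 334 CPM (2.37 ± 0.47, adjusted p = 0.0172), in 21.3%, 4.0%, 54.4% and 43.0% of cells. *Cxcl2* was at 0, 0, 50.4 and 36.9 CPM, 0 against 302 UMIs, at least 5.46-fold higher (adjusted p = 0.00995), in 12.0% and 10.2% of LATS1/2-KO cells and at 0.443 and 0.355 times the library's level. In fibroblasts gated cell by cell it gave 1.99 on the log2 scale (adjusted p = 0.155). Summed macrophage markers in fibroblasts were 15.9 to 25.3 CPM in CTL and 91.7 to 139.5 in LATS1/2-KO, and their part in this result was not tested. Without CTL 1 or without CTL 2 no member was called by edgeR (7 and 4 at an unadjusted p under 0.05), with adjusted p for *Ccl8* of 0.122 and 0.241 and for *Cxcl2* of 0.290 and 0.211. Leaving out either LATS1/2-KO mouse raised the number called, with no share over all genes given beside it.

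The most abundant fibroblast ligands gave values without a call. *Cxcl1* was at 469, 836, 253 and 299 CPM (-1.11 ± 0.32, adjusted p = 0.0729), *Ccl11* at 354, 676, 223 and 233 (-1.04 ± 0.33, adjusted p = 0.0955) and *Ccl7* at 173, 239, 80.8 and 110 (-0.96 ± 0.31, adjusted p = 0.101). For these 3 the CTL mice were above the LATS1/2-KO mice. *Ccl2* was at 202, 653, 195 and 204 CPM and *Cxcl12* at 494, 255, 222 and 401, both with overlap. *Cxcl14* was at 357, 15.9, 932 and 521 CPM (1.90 ± 0.68, adjusted p = 0.138), and *Cxcl13* at 198, 7.96, 12.7 and 592, so that 1 mouse of each group was high.

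Fibroblast clusters differed in which ligands they held, given here as a description. Cluster 22, like myofibroblasts and almost absent from CTL, had *Ccl8* at 617 and 919 CPM and *Cxcl14* at 1725 and 1186 in LATS1/2-KO 1 and 2. Cluster 19, of the same kind, had *Ccl8* at 113 and 180 CPM and *Cxcl14* at 378 and 430. Cluster 6, like inflammatory fibroblasts and present in all libraries, had *Ccl8* at 234 and 215 CPM and *Cxcl12* at 371 and 502, against 195 and 135 of *Cxcl12* in cluster 22. In cluster 6 alone, chosen for a repeat after the data were seen, 3 members were called, with both *Ccl8* and *Cxcl2* among them. The share of all genes called there is not given. *Cxcl13* in LATS1/2-KO 2 lay in cluster 6 at 802 CPM, where LATS1/2-KO 1 had 36.0.

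Endothelial cells changed in the ligands of Cxcr3 and in *Cxcl12*, with 44 and 35 CTL cells. Of 12 members tested 8 were called, 5 higher (4 ligands and 1 receptor) and 3 lower, where 6.83% of all genes were called, 3.16% higher and 3.67% lower. *Cxcl9* was at 69.7, 4.66, 684 and 391 CPM (3.82 ± 0.51, adjusted p = 0.00058), in 4.55%, 2.86%, 32.3% and 26.7% of cells. *Cxcl10*, its partner ligand of activated T cells, was at 303, 131, 745 and 521 CPM (1.57 ± 0.32, adjusted p = 0.00881), in 13.6%, 11.4%, 42.6% and 36.3% of cells; 86.5% of the UMIs of CTL 1 lay in 1 cell. *Cxcl2* was at 12.3, 4.66, 139 and 82.6 CPM (3.68 ± 0.55, adjusted p = 0.00128) and *Ackr1*, the binding receptor of venules, at 418, 229, 804 and 609 (1.16 ± 0.27, adjusted p = 0.0212). *Cxcl14* went from 0 to 60 UMIs, at least 3.63-fold, and lay at 0.236 and 0.121 times the library's level. Both LATS1/2-KO mice were above both CTL mice for these 5 genes, of which *Cxcl9*, *Cxcl10* and *Ackr1* were also above the library's level.

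*Cxcl12* was at 947, 504, 78.2 and 118 CPM in endothelium (-2.85 ± 0.31, adjusted p = 0.000134), in 59.1%, 54.3%, 17.1% and 25.6% of cells, with 25.5% and 50.9% of the CTL UMIs in 1 cell each. *Cx3cl1* was at 49.2, 51.3, 18.2 and 13.5 CPM (-1.61 ± 0.42, adjusted p = 0.0348). *Ccl21a*, the lymphatic ligand of Ccr7, was at 750, 821, 0 and 31.0 CPM (-5.61 ± 0.65, adjusted p = 0.000198), but its 183, 176, 0 and 39 UMIs lay in 2, 1, 0 and 1 cells. Cells with at least 2 lymphatic markers numbered 0, 2, 4 and 6, and the summed level of the 5 lymphatic markers was 41.0 to 382 CPM in CTL and 49.0 to 94.5 in LATS1/2-KO.

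No endothelial member was called by edgeR without CTL 1 (8 at an unadjusted p under 0.05) or without CTL 2 (5), where adjusted p for every one of the 8 lay between 0.402 and 0.521, while 4 and 6 were called without LATS1/2-KO 1 or LATS1/2-KO 2. The directions of the 8 were the same in all 4 cases. Summed fibroblast markers in these cells were 9.33 to 250.1 CPM in CTL and 514 to 596 in LATS1/2-KO, and macrophage markers 14.0 to 32.8 and 83.8 to 160.4. Their part in the results was not tested.

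**Figure D4:**
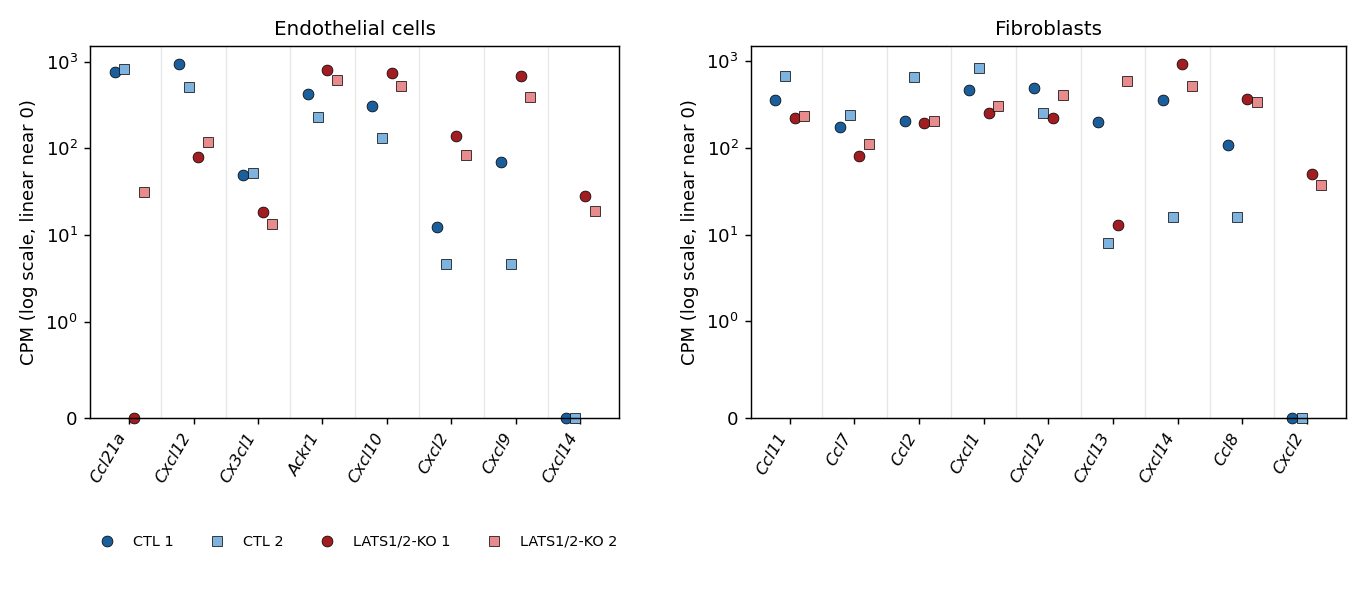
CPM per mouse (points) of the 8 called members in endothelial cells (left) and of 9 leading members in fibroblasts (right). The endothelial members were drawn because they were called, and their CTL and LATS1/2-KO points are apart, with *Cxcl12* at 947 and 504 against 78.2 and 118. In fibroblasts *Ccl2*, *Cxcl12* and *Cxcl13* overlap.

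In T/NK cells, the main CTL source of *Ccl5*, the members called were *Cxcr6* and *Xcl1*. Of 9 members tested 2 were called, both lower, where 2.41% of all genes were called, 1.71% higher and 0.696% lower. *Cxcr6*, the receptor of Cxcl16 on resident lymphocytes, was at 143, 199, 16.5 and 16.7 CPM (-3.29 ± 0.53, adjusted p = 6.79e-05), in 20.1%, 24.7%, 3.45% and 2.5% of cells. *Xcl1*, which attracts Xcr1-bearing dendritic cells, was at 557, 1635, 214 and 233 CPM (-2.23 ± 0.40, adjusted p = 0.000329), in 29.9%, 53.4%, 10.3% and 25.0% of cells. Neither gene's groups overlapped. Without CTL 2 the call on *Xcl1* was lost (-1.44, adjusted p = 0.290), and cells gated one by one gave no call by edgeR (4 members at an unadjusted p under 0.05).

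*Ccl5* in T/NK cells was at 4682, 7773, 1564 and 4098 CPM (-1.09 ± 0.33, adjusted p = 0.0813), in 43.1%, 71.2%, 51.7% and 76.7% of cells. The clusters differed between groups: cluster i3, of CTL cells, had *Ccl5* at 10409 and 9933 CPM and *Xcl1* at 1215 and 2259, and cluster i1, of LATS1/2-KO cells, *Ccl5* at 1629 and 4345 and *Xcl1* at 243 and 248. *Cxcr6* was led by cluster i9 of the CTL mice, at 843 and 715 CPM, and *Ccr7* by cluster i7 of CTL 1, at 603 CPM. *Cxcr4* was at 106, 113, 132 and 157 CPM. Depth was lower after *Lats1/2* loss (median 2685.5, 3082, 1554 and 1994 UMIs), and other markers moved with the groups. The summed T cell markers of these cells were 1643 to 1915 CPM in CTL and 407 to 1499 in LATS1/2-KO, and the NK markers 2336 to 2913 and 379 to 1861. Epithelial markers were 644 to 650.3 CPM in CTL and 1511 to 2454 in LATS1/2-KO, and fibroblast markers 13.0 to 17.4 and 906 to 917. The part of these in the results on *Cxcr6* and *Xcl1* was not tested.

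Macrophages were described in the LATS1/2-KO mice only, as the CTL libraries had 4 and 5, and no test was made. Their leading ligands were the neutrophil attractant *Cxcl2* (1473 and 1855 CPM), *Ccl6* (1362 and 1036) and *Ccl9* (724 and 528). *Cxcl16* was at 620 and 489 CPM, *Ccl2* at 443 and 571, *Ccl3* at 196 and 247, *Ccl4* at 167 and 237, *Ccl7* at 150 and 190 and *Ccl12* at 103 and 65.2. Both mice gave the same order of magnitude for each. *Ccl17* was at 201 and 130 CPM over all macrophages and at 752 and 899 in cluster i5, where it was concentrated.

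Receptors of myeloid cells were detected in a large share of these macrophages. *Ccr1*, which binds Ccl6 and Ccl9, was at 241 and 241 CPM and was detected in 60.6% and 55.0% of macrophages (median depths 4398.5 and 4212.5 UMIs), against 0.488% and 1.05% of the deeper luminal ER- cells of the same libraries (8522 and 8816 UMIs), which should lack it. *Ccr2*, the receptor of Ccl2, was in 43.1% and 34.9% of macrophages against 0.867% and 1.05%. *Cx3cr1* was in 26.1% and 11.2% against 0.434% and 0.499%. Thinned to 2000 UMIs, the macrophage shares were 35.6% and 37.9% for *Ccr1*, 30.6% and 22.8% for *Ccr2* and 16.7% and 5.8% for *Cx3cr1*.

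*Cxcr4* was at 225 and 333 CPM in macrophages and in 56.4% and 64.0% of cells, below *Ccr1* in LATS1/2-KO 1 and above it in LATS1/2-KO 2. It was also in 8.2%, 9.31%, 4.39% and 8.87% of luminal ER- cells. *Cxcr6* was in 0 of 188 and 0 of 258 macrophages, which allows shares of cells with a UMI of up to 1.6% and 1.16% and does not limit the share expressing it. *Cxcr2*, the receptor of Cxcl1, Cxcl2 and Cxcl5, was in 63.2% of the 19 neutrophils of LATS1/2-KO 2, which also had *Cxcl2* at 6066 CPM. *Ccr6*, the receptor of Ccl20, had 10 UMIs in all, 7 of them in 5 T/NK cells of CTL 1. It had a UMI in 0 of 29 and 0 of 120 LATS1/2-KO T/NK cells, of median depths 1554 and 1994 UMIs, which allows up to 10.3% and 2.5% of cells with a UMI and sets no limit on cells expressing it.

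**Figure D5:**
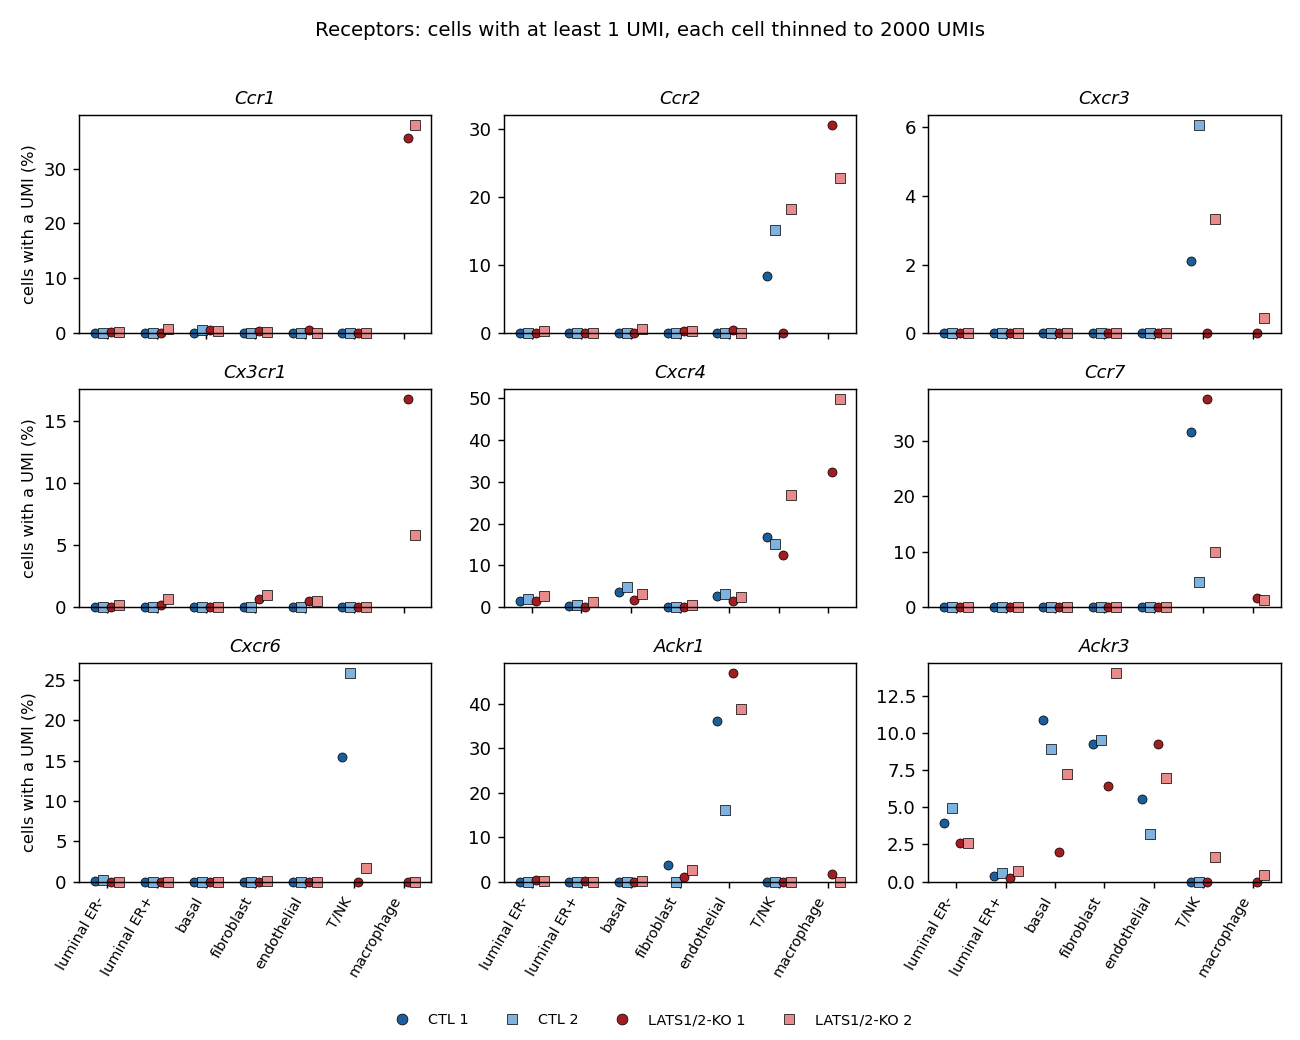
Percentage of cells with at least 1 UMI of 9 receptors after thinning each cell to 2000 UMIs, by lineage and library. *Ccr1* was highest in macrophages and *Ackr1* in endothelium.

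Other ligand and receptor pairs were limited by few receptor UMIs. *Cxcr3*, the receptor of Cxcl9 and Cxcl10, had 25 UMIs, in 4.6%, 6.85%, 3.45% and 3.33% of T/NK cells. *Xcr1* had 13 UMIs, *Cxcr5* 12, *Ccr4* 7 and *Ccr10* 30 over all cells, with their ligands *Xcl1* at 813, *Cxcl13* at 3504, *Ccl17* at 697 and *Ccl22* at 32 for Ccr4, and *Ccl27a* at 2348 and *Ccl28* at 22 for Ccr10. *Ccr3* and *Ccr9* had 11 UMIs each, *Ccr8* 3, *Cxcr1* 1, *Ccl1* 5 and *Ccl24* 43. *Ccr7*, the receptor of Ccl21a, was found in T/NK cells at 313, 39.02, 231 and 133 CPM, with wide overlap.

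The effect of *Lats1/2* loss was also set against itself between lineages of the same mice. Of the members tested, 10 of 35 differed between luminal ER- cells and fibroblasts, 7 of 31 between luminal ER- and endothelial cells and 2 of 19 between fibroblasts and endothelial cells, where 12.9%, 11.4% and 1.5% of all genes did. *Cxcl12* differed in all 3 of these tests: its log2 fold change was 1.25 in luminal ER- cells, -0.19 in fibroblasts and -2.85 in endothelium. Without the mouse block edgeR lost the call between luminal ER- cells and fibroblasts (1.32, adjusted p = 0.165). It was also lost between fibroblasts and endothelium (2.67, adjusted p = 0.0684). *Ccl2*, at 5.24 in luminal ER- cells and -0.93 in fibroblasts, differed between that pair by 5.79 ± 0.37 (adjusted p = 2.21e-22).

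Genes around the chemokine system, a list of 31 that holds further ligands and receptors, G protein and arrestin partners, inducing cytokines and NF-kB and interferon factors, were more often lower than higher in the epithelium. In luminal ER- cells 4 of 24 were higher and 15 lower, with a median log2 fold change of -0.91, where 32.6% and 30.1% of all genes were. In luminal ER+ cells 4 of 24 were higher and 9 lower (15.1% and 14.0% of all genes), and in basal cells 1 of 19 was higher and 5 were lower (15.9% and 15.9%). The values that follow are those of luminal ER- cells. The NF-kB genes *Nfkb1* (-1.76), *Nfkb2* (-1.54), *Rela* (-1.37), *Relb* (-1.15), *Nfkbia* (-1.45) and *Nfkbiz* (-0.98) were lower. *Tnfaip3* (0.83), of the same group, was higher. *Irf1* (-1.22), a factor of the interferon response, the arrestin *Arrb1* (-2.95), the atypical receptor *Ccrl2* (-1.68) and the chemokine-cleaving peptidase *Dpp4* (-1.68) were lower, and the platelet and macrophage ligand *Pf4* (5.33), *Rgs1* (1.63) and *Grk6* (1.36) were higher. Over the whole library *Pf4* rose by 7.07, and the part of macrophage RNA in its luminal value was not tested. In fibroblasts 1 of 17 of the list was lower and in endothelium 2 of 17 were lower, where 2.62% and 3.67% of all genes were, and in T/NK cells edgeR called none of 20 (5 at an unadjusted p under 0.05).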

How the data were processed

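Live cells of the mammary glands of 4 mice were profiled by 10x 3′ sequencing, with the glands of 1 mouse pooled in each library. The deposited matrices hold whole-number UMI counts that the authors obtained for every gene in every barcode, without normalization. The submitters' processing notes name Cell Ranger 3.1.0 and mm10, while the matrix headers name Cell Ranger 6.1.2. A barcode was kept if it had over 500 genes and less than 20% of its UMIs in mitochondrial genes. No doublets were removed, as the study's methods state none. Cells were normalized with sctransform 0.4.2 and clustered in Seurat 5.3.0 (3000 variable genes without the members, 20 components, resolution 0.8), with immune cells clustered again (2000 genes, 15 components). A cluster was named when at least 3 markers of a type reached 2-fold and 20 CPM; these limits were set after marker levels had been seen. Names were rebuilt here and may differ from those of the study. Perivascular cells and B cells entered no comparison, since CTL 2 had 7 and 4 of them, under the minimum of 10 cells per library. The former also share contractile genes with basal cells, and the latter carried macrophage UMIs.

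UMI counts were summed per library and lineage with at least 10 cells and tested with edgeR 4.0.16 (filterByExpr, TMM scaling, quasi-likelihood, Benjamini-Hochberg, R 4.3.3) over all genes passing the filter, LATS1/2-KO against CTL. The comparison of EYFP+ and EYFP- cells and the differences between lineages had the mouse as a block. With n = 2, p-values set the difference between groups against a spread between mice that edgeR estimates with information shared across genes. Where the mouse is a block, the spread is what remains after differences between mice. The LATS1/2-KO against CTL tests were first run on simulated data with 2-fold and 4-fold changes. Of these changes 77.6% and 95.9% were recovered in luminal ER- cells, 16.7% and 69.7% in endothelium, and 4.12% and 33% in fibroblasts. Few calls in fibroblasts thus do not mean few changes. False calls were 18% of those made in the whole library. The tests on EYFP and on differences between lineages were not simulated. Counting intervals (95%, exact) and floors (3 counts over a group) cover counting error only. Overlap between groups describes these mice and is no added test, as most genes so described were chosen by their call. No share over all genes is given beside it.

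The gene family and the lists were chosen with earlier results of these data known. Named in the text were the called members, the leading ligands and receptors of each lineage, and textbook ligand and receptor pairs. Some items that enter the counts are not reported here. Alternatives were DESeq2 1.42.0, RLE factors, no filter on low counts, thinning, a 10% mitochondrial limit, resolution 0.4, lineages gated cell by cell, and leaving out each library. No column of per-sample values was left unused. Gene positions are from GENCODE vM21 (GRCm38) and promoters from RefSeq.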

Additional observations from a re-analysis of the deposited data

Results flagged for a closer look

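In 19 cases the effect of *Lats1/2* loss on a member differed between 2 lineages of the same mice, by a test of the difference itself (edgeR quasi-likelihood with the mouse as a block, adjusted p under 0.05 over all genes). Values are differences of log2 fold changes, the first lineage minus the second, and the medians over all genes tested were -0.31, -0.28 and 0.05 for the 3 pairs of lineages in the order below.

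The *Ccl2* cluster differed between luminal ER- cells and fibroblasts: *Ccl2* by 5.79 ± 0.37, *Ccl7* by 5.01, *Ccl11* by 3.81 and *Ccl8* by 3.42. Fibroblast levels were above luminal levels in every library. *Ccl7*, *Ccl11* and *Ccl8* rest on few UMIs in the CTL luminal ER- cells. Without the mouse block edgeR lost the call on *Ccl8* (3.66, adjusted p = 0.152). *Cxcl5* differed by 4.79, *Cxcl12* by 1.31, *Cx3cl1* by -1.54 and *Ackr3* by -1.54. *Cxcl13* (4.48) and *Cxcl2* (-12.89) each rest on a CTL group at 0 UMIs, in luminal ER- cells and fibroblasts respectively, so that their size depends on the prior count.

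Against endothelium, luminal ER- cells differed in *Cxcl12* by 3.97 ± 0.30, as it rose in the former and fell in the latter, and in *Ackr1* by 2.73. *Cxcl2* (-4.63), *Cxcl9* (-2.89), *Cxcl10* (-1.45), *Ackr3* (-1.37) and *Cxcl1* (-1.28) differed in the other direction. Between fibroblasts and endothelium *Cxcl12* differed by 2.68 and *Ccl2* by -8.66, the latter with endothelial CTL cells at 0 UMIs.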

How the results depend on the processing

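No called member changed direction under any alternative. Counts of called members under the alternatives, here and above, are given without the share of all genes called in the same setting. They describe how the calls depend on the setting and are no result on the chemokines. Of 961 values of single members under all settings but the leave-one-out ones, 882 stayed on their side of the threshold and 79 lost the call; of 328 leave-one-out values, 272 stayed and 56 lost it. In luminal ER+ cells, sums thinned to the smallest library gave 5 called members. Lineages gated cell by cell gave 10 in basal cells, 0 in fibroblasts (3 at an unadjusted p under 0.05) and 0 in T/NK cells (4). Without a filter on low counts edgeR called 7 in fibroblasts, 0 in endothelium (9 at an unadjusted p under 0.05) and 7 in T/NK cells. Thinned sums gave 1 in fibroblasts and 1 in T/NK cells, library totals 1 in T/NK cells, and DESeq2 4 in endothelium. For EYFP+ against EYFP- cells the counts were 3 without the mouse block, 5 thinned and 7 with DESeq2. The differences between lineages without the mouse block came to 4, 4 and 0 (4 at an unadjusted p under 0.05). The cause of these changes was not tested.

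Leaving out 1 library gave 23 to 29 called members in luminal ER- cells, 2 to 14 in luminal ER+ cells, 5 to 7 in basal cells, 0 to 8 in fibroblasts, 0 to 6 in endothelium, 3 to 8 in T/NK cells and 26 to 33 in the whole library. Replicate numbers did not pair the mice (correlations of 0.00897 to 0.0585 in the lineages and -0.135 over the whole library). With them as a block the counts were 26, 13, 5, 3, 8, 3 and 28 in the same order, and 33 in the whole library with the numbers crossed. Chosen after the data were seen, library totals in place of TMM gave 25 in luminal ER- cells and 33 in the whole library, and adding the unnamed epithelial cells gave 26 in luminal ER- cells, 24 of them shared.

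The mean share of *Ccl20* UMIs in luminal ER- cells became 95.2% by the cell gate and 89.8% at resolution 0.4. By the cell gate, basal cells held 69.5% of *Cxcl14* in CTL and 32.8% in LATS1/2-KO (34.9% at the 10% mitochondrial limit), fibroblasts 36.3% of it (37.0% at resolution 0.4), macrophages 79.4% of *Ccl6* (78.3% at the 10% limit) and luminal ER+ cells 81.1% of *Cxcl15*. The smaller CTL groups held 25 fibroblasts and 35 endothelial cells.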

Other observations

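Several values belong to cells outside the comparisons. The unnamed epithelial cells of the LATS1/2-KO libraries had *Cxcl16*, the ligand of Cxcr6, at 180 CPM in LATS1/2-KO 1 and 166 CPM in LATS1/2-KO 2 as their leading member, with *Cxcl10* at 68.6 and 63.8 CPM and *Cxcl14* at 37.9 and 84.2 CPM. The same cells held 41 and 115 UMIs of *Cx3cr1*, 21.4% and 46.9% of all in their libraries, in 10 and 8 cells. The perivascular cells of these libraries had *Cxcl1* at 441 and 307 CPM and *Cxcl12* at 132 and 132 CPM. Of the 43 UMIs of *Ccl24* in all cells, 31 lay in the 4 macrophages of CTL 1. The 31 *Ccl22* UMIs of the LATS1/2-KO libraries lay mostly in cells named B cells (10 and 7) and in macrophages (4 and 7). The cells named B cells had *Ccr7* at 788 and 415 CPM. Their summed B cell markers were at only 98.5 to 138.4 CPM, against 1922 to 2888 for macrophage and 98.5 to 199.9 for dendritic markers. Their name is therefore uncertain.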
